A study of Mus musculus with 20 samples.

Results

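The genes described here are Socs1, Socs2, Socs3 and Cish, which encode feedback inhibitors of cytokine receptors. They were found by gene symbol in the annotation of the array platform. All 4 genes were present, on 5 of the 12488 probe sets of the array (92832_at for Socs1, 99475_at for Socs2, 162206_f_at and 92232_at for Socs3, and 100022_at for Cish), and all 4 passed the filter on low values. The brighter Socs3 probe set on average, 162206_f_at, stood for Socs3 in the comparisons. Its suffix marks a set of probes that may match a family of sequences, so the other probe set, 92232_at, is given beside it as the second Socs3 probe set.

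RNA was measured on 20 single-colour oligonucleotide arrays of CD8 T cells from OT-1 TCR transgenic mice of the C57Bl6 strain, aged 6 to 8 weeks. These mice carry 1 transgenic T cell receptor, specific for an ovalbumin peptide presented by H-2Kb, a class I protein, so the cells are of a single specificity. CD44lo CD8+ cells were obtained from lymph nodes by negative enrichment. Naive cells at 0 h (3 arrays) were not cultured. The other 17 arrays came from cells stimulated on latex microspheres coated with the peptide complex and the costimulatory ligand B7-1 (Ag-B7), in place of antigen-presenting cells. Human rIL-2 was in all the cultures, so no stimulated group lacked IL-2, and no cultured group lacked Ag-B7. At 48 h there were 4 arrays of Ag-B7 alone, 3 with murine rIL-12 added and 3 with universal type I interferon (IFNa/b) added. At 24 h and 72 h each of these conditions had 1 array, and 1 further array at 72 h had trichostatin A (TSA), a histone deacetylase inhibitor, added to Ag-B7. The labels call the replicates biological but do not say how many animals gave each sample, so the p-values measure the spread between these samples.

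SOCS proteins close a negative feedback loop. A cytokine receptor activates JAK kinases, these phosphorylate STAT transcription factors, and the STATs induce SOCS genes, whose proteins then bind the receptor or the JAK through an SH2 domain and, through a SOCS box, recruit a ubiquitin ligase. SOCS1 restrains interferon signalling and signalling by cytokines that use the common gamma chain, SOCS3 restrains receptors built on gp130 and also the IL-12 receptor, and CIS (the protein of Cish) and SOCS2 are known as products of STAT5 target genes that act on IL-2, growth hormone and related receptors. In CD8 T cells these proteins set how strongly a cell answers IL-2, IL-12 and interferons, which is the setting of this study: antigen and costimulation with or without a cytokine as a further signal.

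Short stretches of the promoters are shown because STAT and interferon-responsive motifs are the letters through which these pathways are known to reach such genes. They come from RefSeq windows (build GRCm38.p6) of 250 bases before and 50 after each annotated start. Of the 4 genes, 3 matched an entry, and Socs2 did not. The motifs searched, on both strands, were TTCNNNGAA, the core of a STAT site, which reads the same on either strand, and 2 copies of GAAA separated by any 2 bases, the core of an interferon response element. Matches of 1 motif were allowed to overlap, and the motifs did not overlap each other in these stretches. Capitals mark the matches.
Cish, chr9:107296654-107296683, plus strand: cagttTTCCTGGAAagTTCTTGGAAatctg
Socs3, chr11:117969501-117969530, minus strand: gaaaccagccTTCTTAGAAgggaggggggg
Socs1, chr16:10785597-10785626, minus strand: cttgccgGAAAGAGAAACCGAAAgcggggg
The Cish stretch ran from 5 bases before to 24 bases after the start base and held 2 STAT motifs. The Socs3 stretch lay 164 to 135 bases before the start and held 1 STAT motif. The Socs1 stretch lay 90 to 61 bases before the start and held 2 overlapping interferon motifs. TTCNNNGAA was present in 2726 of 32851 promoter windows (8.3%) and the interferon motif in 1131 (3.44%). A match is a description of letters and does not show that a factor binds there.

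Values are MAS5 signals on a linear scale, in which every array was scaled to the same trimmed mean. A level therefore is relative to the RNA labelled from that sample, and signals of different probe sets cannot be set against each other as amounts of RNA. Differences are on the log2(signal + 46.4) scale, which understates the change of dim probe sets. They were tested with limma on the 13 replicated arrays, over 6279 genes, and a gene was called when its Benjamini-Hochberg adjusted p was below 0.05. The arrays at 24 h and 72 h stand alone, so differences that involve them have no test.

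The members differed in direction between naive cells and Ag-B7 cultures, which also held IL-2. Against naive cells at 48 h, Socs3 fell and Socs2 rose, while Socs1 and Cish were not called. These 2 calls among 4 members stand beside 61.7% of all genes called in this comparison (26.1% higher and 35.6% lower), so a call here is common. All the Ag-B7 arrays at 48 h lay above all the naive arrays for 24.4% of genes and below them for 31.6%. The set of called members depended on the scaling: with spike-in scaling Socs1 (1.65) and Cish (2.12) were called, and Socs3 (-0.85) was not.

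Socs3, the brake on gp130 receptors, was high in naive cells and low after stimulation. Its signal was 2557, 2432 and 3962 on the naive arrays and 558, 292, 539 and 407 on the Ag-B7 arrays at 48 h. The groups did not overlap. The difference was -2.61 ± 0.26 on the log2 scale (SE, 3 naive and 4 Ag-B7 arrays; 95% interval -3.17 to -2.06), a 6.13-fold lower level with a limma adjusted p of 6.11e-07.

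The second Socs3 probe set showed a deeper fall. It read 3425, 2984 and 4794 in naive cells and 48, 49, 33 and 192 with Ag-B7 at 48 h. Its mean place within an array went from the 92nd percentile in naive cells to the 25th with Ag-B7. The difference was -5.02 ± 0.45 log2 (95% interval -5.97 to -4.06), 32.4-fold lower, with a limma adjusted p of 1.83e-07. The 2 probe sets thus gave the same direction and different sizes.

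Socs2, a STAT5-responsive member, moved the other way. Its signal was 242, 806 and 338 on the naive arrays and 857, 1789, 1222 and 1985 with Ag-B7 at 48 h. Each Ag-B7 array was above each naive array, though the lowest Ag-B7 array exceeded the highest naive array only narrowly. Socs2 rose by 1.66 ± 0.46 log2 (95% interval 0.69 to 2.63), 3.16-fold, with a limma adjusted p of 0.00513.

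Cish, the other STAT5-responsive member, read 664, 1645 and 1047 in naive cells and 1103, 943, 1109 and 2809 with Ag-B7 at 48 h. The groups overlapped, with replicate 4 of Ag-B7 far above the other 3. The difference was 0.35 ± 0.40 log2 (95% interval -0.50 to 1.19; limma adjusted p 0.466). It ranged from 0.00041 without Ag-B7 replicate 4, and 0.03 without naive replicate 1, to 0.66 without naive replicate 2. It was called when the arrays were centred on their medians (0.99) or scaled by the spiked-in control RNAs (2.12).

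Socs1, the brake on interferon receptors and common gamma chain cytokines, read 2088, 1107 and 1952 in naive cells and 1732, 898, 1280 and 2681 with Ag-B7 at 48 h. The naive values lay inside the range of the Ag-B7 values. The difference was -0.12 ± 0.31 log2 (95% interval -0.77 to 0.54; limma adjusted p 0.76). Its sign depended on the scaling, since it was 0.53 after median centring and 1.65, with a limma adjusted p of 0.00299, after spike-in scaling.

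**Figure D1:**
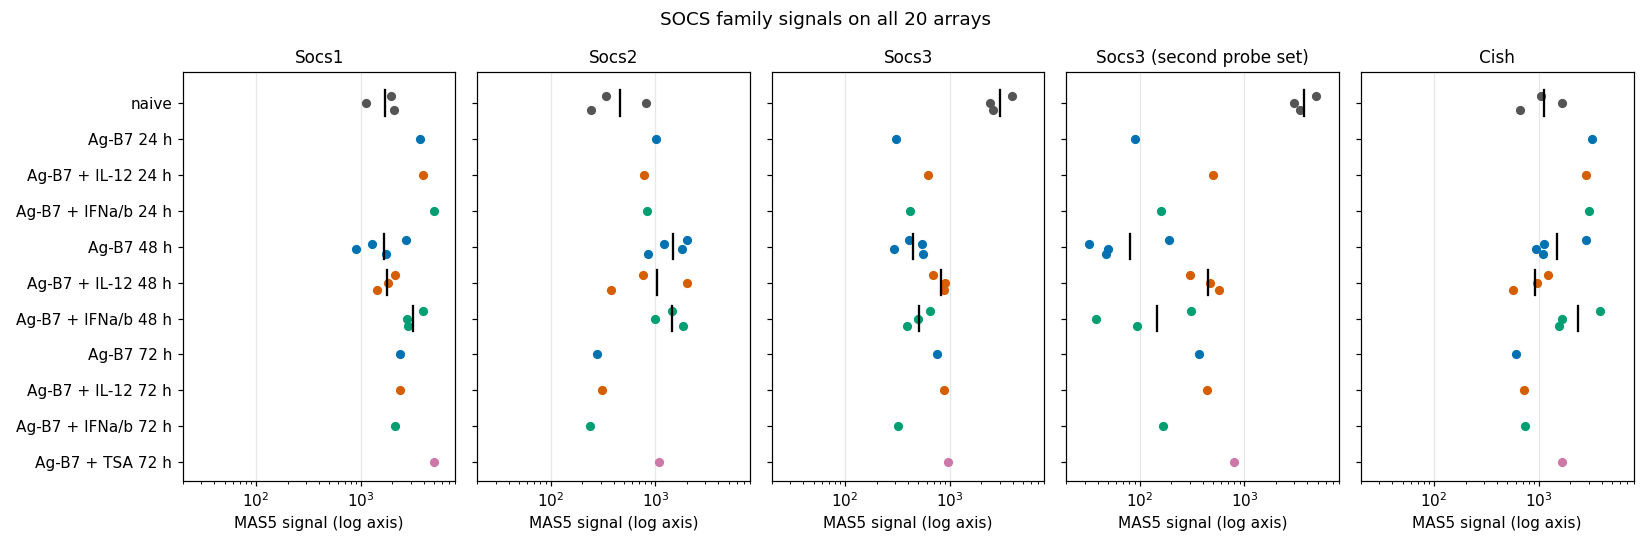
MAS5 signal (log axis) of the 5 SOCS probe sets on all 20 arrays, by group; each point is 1 array and the bar is the mean of a replicated group. Both Socs3 probe sets are highest in naive cells, and the second lies between 33 and 192 with Ag-B7 alone at 48 h but between 304 and 575 with IL-12.

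Several measures other than the stimulation differed between naive and cultured cells. The median gene differed by -0.23 log2 in this comparison, by 0.04 after quantile normalization, by 0.41 after median centring and by 1.54 after spike-in scaling. The split of calls moved with it, from 1640 higher and 2236 lower to 1941 and 1635, 2555 and 1001, and 4026 and 57 in that order. Socs3 lay at -0.85 under spike-in scaling, with a limma adjusted p of 0.104, and the second Socs3 probe set stayed called under each scaling (-5.51 to -3.25 over the alternatives). The 3'/5' signal ratio of actin, a sign of RNA integrity, was 1.13, 2.06 and 1.61 on the naive arrays and 1 to 1.15 on the stimulated ones.

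Markers of other cells also moved, in a comparison in which 26.1% of all genes were called higher and 35.6% lower. Of the myeloid and dendritic cell markers, 12 were on the array and 6 were tested, and all 6 of those fell. Their summed signal was 14109 to 17930 in naive cells, 2450 to 4985 with Ag-B7 at 48 h, 2364 to 2429 with IL-12 and 4179 to 4301 with IFNa/b. Of 8 B cell markers 5 fell and 1 rose, and their sum went from 16034 to 30996 in naive cells to 6627 to 12915 with Ag-B7. The 3 erythroid and platelet markers summed to 6210 to 14512 in naive cells and 411 to 693 with Ag-B7, with 1 of the 2 tested lower. Of the stromal and endothelial markers 2 of 2 tested fell (sums 1572 to 4592 and 798 to 1070), 1 of 1 tested for CD4 and gamma-delta T cells fell (sums 618 to 1729 and 87 to 684), and the 1 tested NK cell marker was not called (181 to 491 and 92 to 187). None of these markers was at 0 on all the arrays of a group. Under spike-in scaling 1 of the 6 myeloid and 1 of the 8 B cell markers fell, and 4 B cell markers rose. Their part in the fall of Socs3 was not tested. On naive replicates 1, 2 and 3 the sums were 14257, 17930 and 14109 for myeloid markers, 16034, 20421 and 30996 for B cell markers and 7047, 6210 and 14512 for erythroid markers. The array with the highest Socs3 on both probe sets, replicate 3, had the highest B cell and erythroid sums and a myeloid sum close to that of replicate 1. In the same order the sums were 618, 1729 and 1090 for CD4 and gamma-delta T cell markers. They were 1572, 4592 and 3368 for stromal and endothelial markers and 181, 393 and 491 for NK cell markers. The 10 CD8 T cell identity markers summed to 74368 to 133612 in naive cells and to 77467 to 102431 with Ag-B7 at 48 h. In such bulk samples, fewer cells of a type and less RNA per cell cannot be told apart.

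IL-12 was compared with Ag-B7 alone at 48 h to find genes set by this cytokine as a further signal. Of the 4 members none was called by limma and 1, Socs3, had an unadjusted p below 0.05, as did 5.8% of all genes. Over all genes 0.621% were called (39 genes; 0.382% higher and 0.239% lower). Socs3 was the member whose arrays did not overlap, which was so in the higher direction for 3.55% of genes and in the lower direction for 3.62%.

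Socs3 read 885, 892 and 684 with IL-12, each above the highest of the 4 Ag-B7 arrays (558). The difference was 0.83 ± 0.26 log2 (95% interval 0.28 to 1.39), 1.78-fold, with a limma adjusted p of 0.323. The second Socs3 probe set read 575, 469 and 304 with IL-12 against 48, 49, 33 and 192 without, again with no overlap. That difference was 2.08 ± 0.45 log2 (95% interval 1.12 to 3.03), 4.21-fold, and it was called, with a limma adjusted p of 0.042.

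The call on the second probe set was narrow. It held in 4 of 13 fits that left out 1 array (limma adjusted p 0.0155 to 0.221 over the 13), namely those without naive replicate 2, Ag-B7 replicate 4 or IFNa/b replicate 2 or 3. It was lost without naive replicate 1 or 3, Ag-B7 replicate 1, 2 or 3, any of the 3 IL-12 replicates, or IFNa/b replicate 1. The difference itself stayed between 1.89 and 2.43 log2 in these fits. The call was also lost after quantile normalization, median centring or spike-in scaling, with a pseudocount of 16, and with no filter. Even with IL-12 the second probe set was well under its naive level, at a mean of 449 ± 137 (SD, n = 3) against 3734 ± 944 (SD, n = 3).

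The other members were not distinguished by IL-12. Socs1 read 1424, 1811 and 2139 with IL-12, inside the range of Ag-B7 alone, and differed by 0.21 ± 0.31 log2 (95% interval -0.44 to 0.86; limma adjusted p 0.998). Cish read 562, 956 and 1206 and differed by -0.61 ± 0.40 log2 (95% interval -1.46 to 0.24; limma adjusted p 0.998), or by -0.26 without Ag-B7 replicate 4 and -0.31 without IL-12 replicate 1. Socs2 read 381, 2000 and 762, a wider spread than in any other replicated group, and differed by -0.69 ± 0.46 log2 (95% interval -1.66 to 0.28; limma adjusted p 0.998), or by -0.16 without IL-12 replicate 1 and -1.29 without IL-12 replicate 2. The intervals of Cish and Socs2 leave room for a level more than 2-fold lower, so similarity is not shown.

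IFNa/b against Ag-B7 alone gave another leading member. None of the 4 was called by limma and 1, Socs1, had an unadjusted p below 0.05, as did 4.55% of all genes. Over all genes 0.43% were called (27 genes; 0.414% higher and 0.0159% lower). Socs1 read 2820, 2784 and 3922 with IFNa/b, each above the highest Ag-B7 array (2681), which was replicate 4. Such a lack of overlap in the higher direction was seen for 3.28% of genes, and in the lower direction for 3.46%. The difference was 1.02 ± 0.31 log2 (95% interval 0.37 to 1.67), 2.03-fold, with a limma adjusted p of 0.378. With the replicate number as a block it was 1.28 and called (limma adjusted p 0.029). Only Ag-B7 has a replicate 4, so this block sets that array aside. In the 13 fits that left out 1 array the difference reached 1.28 at most. It was called in 0 of them (lowest limma adjusted p 0.056). Deviations of same-numbered Ag-B7 and IFNa/b arrays from their group means correlated at only -0.1 to 0.11.

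Cish read 1558, 1657 and 3867 with IFNa/b. All but the highest of these lay below replicate 4 of Ag-B7 and above its other 3 arrays. The difference was 0.66 ± 0.40 log2 (95% interval -0.19 to 1.51; limma adjusted p 1), or 0.25 without IFNa/b replicate 3 and 1.01 without Ag-B7 replicate 4. Socs2 read 1826, 1002 and 1445, within the range of Ag-B7 alone, and differed by -0.01 ± 0.46 log2 (95% interval -0.97 to 0.96; limma adjusted p 1). Socs3 read 389, 498 and 646, and differed by 0.18 ± 0.26 log2 (95% interval -0.37 to 0.73). The second Socs3 probe set read 94, 39 and 310 and differed by 0.50 ± 0.45 log2 (95% interval -0.45 to 1.45), or by -0.07 without IFNa/b replicate 3, which held the highest of the 3 signals.

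**Figure D2:**
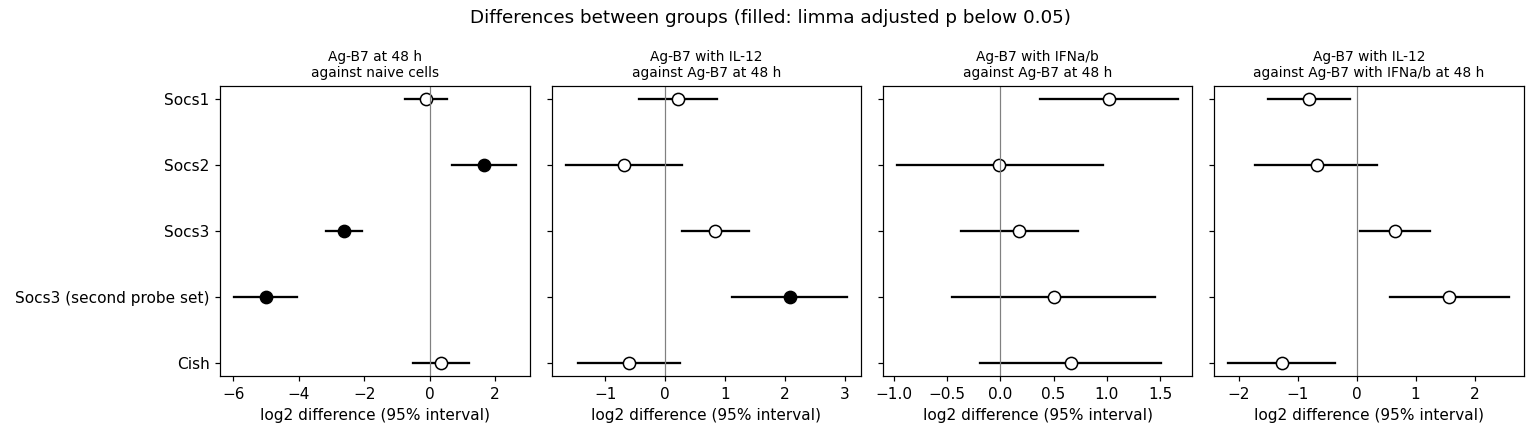
Log2 differences of the 5 probe sets in the 4 comparisons, with 95% intervals from limma; filled points have an adjusted p below 0.05. Against naive cells Socs2 and both Socs3 probe sets are filled, and among the stimulated groups only the second Socs3 probe set with IL-12 is.

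The cytokines were also compared with each other, IL-12 against IFNa/b at 48 h. By limma 0 of the 4 members were called and 3 had an unadjusted p below 0.05, as did 4.83% of all genes. Over all genes 0.94% were called (59 genes; 0.287% higher and 0.653% lower). Cish was lower on each IL-12 array than on each IFNa/b array, with a difference of -1.27 ± 0.43 log2 (95% interval -2.18 to -0.36; limma adjusted p 0.431). Socs1 was likewise lower without overlap, by -0.81 ± 0.33 log2 (95% interval -1.51 to -0.11; limma adjusted p 0.734). Arrays lay wholly lower in this comparison for 6.59% of genes. Socs3 lay wholly higher with IL-12, as did 6.05% of genes, by 0.65 ± 0.28 log2 (95% interval 0.06 to 1.24; limma adjusted p 0.835). Its second probe set differed by 1.57 ± 0.48 log2 (95% interval 0.56 to 2.59; limma adjusted p 0.277), with overlapping arrays, and by 2.14 with a limma adjusted p of 0.0356 when IFNa/b replicate 3 was left out. Socs2 overlapped, at -0.68 ± 0.49 log2 (95% interval -1.72 to 0.35; limma adjusted p 0.999), or -0.15 without IL-12 replicate 1 and -1.28 without IL-12 replicate 2. The IL-12 and IFNa/b comparisons share the 4 Ag-B7 arrays, so a high or low Ag-B7 array moves both.

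The courses over time rest on single arrays at 24 h and 72 h. At 24 h Cish was high in each of the conditions, at 3208 with Ag-B7, 2808 with IL-12 and 3025 with IFNa/b, against 664 to 1645 in naive cells. The Ag-B7 array stood 1.57 log2 above the naive mean (2.97-fold), in a comparison in which 19.3% of genes were at least 2-fold higher and 32.5% at least 2-fold lower. At 72 h Cish was lower than on any 48 h array but 1, at 608, 724 and 738 in the same order.

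Socs1 was also high at 24 h, at 3663 with Ag-B7, 3913 with IL-12 and 4990 with IFNa/b, each above the highest naive array (2088). The Ag-B7 array was 2.18-fold above the naive mean. At 48 h the mean with Ag-B7 was 1648 ± 769 (SD, n = 4) and with IFNa/b 3175 ± 647 (SD, n = 3). At 72 h the 3 conditions read 2360, 2353 and 2113, so the IFNa/b array was the highest of its time at 24 h and the lowest at 72 h.

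Socs2 read 1016 with Ag-B7, 780 with IL-12 and 825 with IFNa/b at 24 h. Its 48 h means were 1463 ± 518 (SD, n = 4), 1048 ± 847 (SD, n = 3) and 1425 ± 412 (SD, n = 3). These means lay above the 24 h arrays by 0.44, 0.11 and 0.72 log2. The 24 h arrays with Ag-B7 and with IL-12 lay inside the ranges of their 48 h arrays, so a rise after 24 h is not shown. At 72 h it had dropped to 279, 310 and 238, each below every 48 h array and within or just under the naive range of 242 to 806. The Ag-B7 array at 72 h was 4.41-fold below the 48 h mean, where 6.59% of genes were at least 2-fold lower, and the IFNa/b array was 5.03-fold below its own, where 4.2% were and 6.75% were at least 2-fold higher.

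Socs3 was already low at 24 h. It read 307 with Ag-B7, 622 with IL-12 and 412 with IFNa/b, and the second probe set read 90, 498 and 160. The Ag-B7 array was 8.37-fold below the naive mean on the first probe set and 27.1-fold on the second. With IL-12 the second probe set read 3.98-fold above Ag-B7 at 24 h, beside 2.15% of genes at least 2-fold higher and 1.27% at least 2-fold lower between these arrays. At 72 h it read 365 with Ag-B7, 437 with IL-12 and 169 with IFNa/b. The Ag-B7 value at 72 h was 3.59-fold above its 48 h mean, where 9.16% of genes were at least 2-fold higher, whereas with IL-12 the 48 h mean and the 72 h value differed by 0.00 log2. By 72 h the arrays with and without IL-12 therefore lay close together on this probe set.

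TSA at 72 h went with higher signals of several members than Ag-B7 alone at that time. Socs2 read 1080 against 279 (3.46-fold on the log2 scale with the pseudocount), Cish 1665 against 608 (2.62-fold) and Socs1 5010 against 2360 (2.1-fold). Socs3 read 951 against 759 (1.24-fold), and its second probe set 805 against 365 (2.07-fold). These are 2 single arrays, between which 7.09% of all genes were at least 2-fold higher and 8.97% at least 2-fold lower. The Socs1 signal with TSA (5010) was level with that of IFNa/b at 24 h (4990), and these were the highest Socs1 signals on the 20 arrays.

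**Figure D3:**
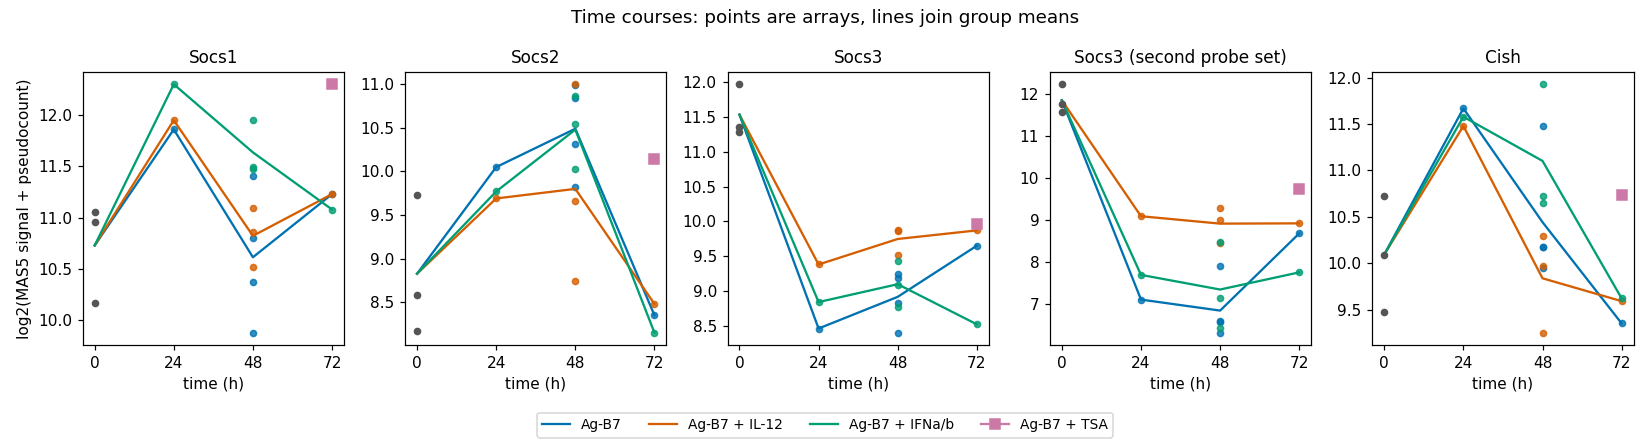
Log2(signal + pseudocount) against hours of stimulation for the 5 probe sets; points are arrays (naive arrays in grey at 0 h), lines join group means, and the square is the single TSA array at 72 h. The Cish and Socs1 lines are highest at 24 h in each condition other than TSA, Socs2 drops from 48 h to 72 h, and the IL-12 line of the second Socs3 probe set runs above the other lines from 24 h on.

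Ordered by mean log2 level over the 11 groups, Cish ran from the 24 h arrays (Ag-B7 highest, then IFNa/b and IL-12) through IFNa/b at 48 h and TSA down to Ag-B7 at 72 h. Its 48 h groups had SDs of 0.53 to 0.72 log2, wider than most steps between neighbours, so neighbouring places in this order are not separated. For Socs1 the top places were IFNa/b at 24 h and TSA (both 12.30) and the lowest Ag-B7 at 48 h (10.62), which lay within 1 SD (0.65) of naive cells and of IL-12 at 48 h. For Socs2 the highest groups, Ag-B7 (10.49) and IFNa/b (10.48) at 48 h, were level, and the lowest were the 3 arrays at 72 h without TSA. For Socs3 the naive group (11.53) stood clear of the next, TSA (9.96), on a naive SD of 0.38. On the second probe set naive cells (11.86) were followed by TSA (9.73), the IL-12 groups at 24 h (9.09), 72 h (8.92) and 48 h (8.91), and then Ag-B7 at 72 h (8.68).

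The members did not follow a single pattern. Over the 10 stimulated group means the Pearson correlation of Cish was 0.711 with Socs1, 0.705 with Socs2 and -0.41 with Socs3, and that of Socs1 with Socs2 was 0.258. These are descriptions over 10 points, 7 of which are single arrays, and the points share 1 RNA sample for all genes. Among 4076 genes whose stimulated group means spanned at least 1 log2 unit, the genes most like each member were Mrps2 (0.978), Srpr (0.969) and Rrp1b (0.967) for Cish. They were Zfp213 (0.895), Slc25a25 (0.888) and Zmiz2 (0.886) for Socs1, and Slc29a1 (0.952), Psmd13 (0.932) and Naa38 (0.93) for Socs2. For Socs3 they were Slc6a13 (0.939), Mgmt (0.906) and Fbxo15 (0.903), and for its second probe set Bcl3 (0.934), Lama1 (0.909) and Mfap2 (0.909). With naive cells included, over 11 groups, the closest were Imp4 (0.955) for Cish, Zfp213 (0.907) for Socs1, Bud31 (0.931) for Socs2, Slc6a13 (0.976) for Socs3 and Mfap2 (0.956) for its second probe set.

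The rest of the pathway gives the setting in which these brakes were measured. Its gene lists were chosen with earlier results of these data known, so counts within them are descriptions. Of the other SOCS genes only Socs5 was on the array with a single symbol. It fell with Ag-B7 against naive cells, with a difference of -1.27 ± 0.28 log2 (2.4-fold; limma adjusted p 0.00104), but was 0.50 under spike-in scaling, and it was not called with IL-12 (-0.14 ± 0.28) or IFNa/b (0.22 ± 0.28). Of the 6 genes listed as SOCS box ubiquitin ligase partners 4 were on the array, so not every partner was measured. Against naive cells 3 of the 4 tested rose and none fell (median 1.01, against -0.23 over all genes), where 26.1% of all genes were called higher. These were Eloc (1.49 ± 0.20), Elob (1.21 ± 0.21) and Cul2 (0.82 ± 0.24), the elongin adaptors and a cullin scaffold. The remaining gene tested, Rnf7, was not called (0.18 ± 0.28; limma adjusted p 0.588), and the listed cullin Cul5 was not measured.

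The kinases and factors of the pathway were mostly lower in the same comparison on the deposited scale. Over all genes 26.1% were called higher there and 35.6% lower, so calls within the lists below are common. Of 9 JAK and STAT genes tested 5 fell and none rose (median -0.62). The largest were the kinase Jak1 (-1.65 ± 0.27), Stat3, the factor downstream of gp130 (-1.41 ± 0.24), and Stat5a, downstream of IL-2 (-1.39 ± 0.16). This direction turned with the scaling: after median centring the list median was 0.02 with 3 lower, and after spike-in scaling it was 1.14 with 5 higher, with Jak1 at 0.12, Stat3 at 0.36 and Stat5a at 0.38. Of 15 cytokine receptor chains 3 rose and 7 fell (median -0.06), among them Il7r, the IL-7 receptor (-3.74 log2), Ifngr2, an interferon gamma receptor chain (-3.64), and Il2ra, the high-affinity IL-2 receptor chain (3.00 ± 0.43). The receptor median was 0.07 after quantile normalization, 0.59 after median centring and 1.71 after spike-in scaling. Of 9 other brakes 2 rose and 3 fell (median -0.34). Usp18, which blocks the type I interferon receptor, lay at -2.89 ± 0.41, the phosphatase Ptpn6 at 1.59 ± 0.25 and the adaptor Sh2b3 at -1.31 ± 0.28. The median of these brakes was 0.30 after median centring and 1.43 after spike-in scaling. Sh2b3 was 0.46 under spike-in scaling, where the call on Usp18 was also lost (-1.12, limma adjusted p 0.0504).

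Genes known to answer STAT5, STAT3 or STAT4 differed by list against naive cells, where 26.1% of all genes were called higher and 35.6% lower. Of 9 STAT5-responsive genes 6 rose and 1 fell (median 0.89), led by the costimulatory receptor Tnfrsf4 (3.73), Il2ra (3.00) and the cytokine Lta (2.38). Of the STAT5-responsive members Socs2 rose, and Cish (0.35 ± 0.40) was not called. After spike-in scaling the list median was 2.66, with 8 higher and 0 lower. A link between these lists and the members was not tested. Of 6 STAT3-responsive genes tested 1 rose and 4 fell (median -1.64), with Fos (-4.27), Bcl3 (-2.78) and Bcl6 (-1.79), beside the fall of Socs3. After spike-in scaling that median was 0.13, with 2 higher and 1 lower, and the calls on Bcl3 (-1.01) and Bcl6 (-0.02) were lost. The STAT4-responsive list held 1 higher and 2 lower of 7 (median -0.25), with Ets1 (-2.28), Ifng (2.22) and Furin (-1.19). This median turned positive with quantile-normalized (0.33), median-centred (0.40) and spike-scaled arrays (1.52). Under spike-in scaling Furin (0.58) changed sign, and the call on Ets1 (-0.51) was lost.

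With IL-12 at 48 h most of the called pathway genes were on the STAT4-responsive list. That list was chosen with earlier results of these data known, so its count and median describe these genes and test no pathway. Of the 7 STAT4-responsive genes 4 rose and none fell (median 1.96, against -0.01 over all genes). They were Ifng, the gene of interferon gamma (4.16 ± 0.49; limma adjusted p 0.000243), Il18r1, a receptor chain for IL-18 (2.17 ± 0.38; 0.0123), the protease gene Furin (1.99 ± 0.19; 3.12e-05) and the stress gene Gadd45g (1.96 ± 0.34; 0.012). Il18r1 was not called without any 1 of the IL-12 replicates (limma adjusted p 0.0833, 0.0509 and 0.066), and Gadd45g was not called without IL-12 replicate 1 (0.0968). Under spike-in scaling 1 of the 7, Ifng, was called and Furin (1.79; limma adjusted p 0.116), Gadd45g (1.76; 0.252) and Il18r1 (1.97; 0.0942) were not. Usp18 rose by 4.20 ± 0.41 (limma adjusted p 3.26e-05), the 1 call among the 9 other brakes.

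Among the receptors 1 of 15 was called with IL-12. Il6ra, which pairs with gp130, fell by 1.53 on the log2 scale (SE 0.30; limma adjusted p 0.0244). It was not called without Ag-B7 replicate 1 (limma adjusted p 0.0678), 3 (0.0895) or 4 (0.059) or IL-12 replicate 1 (0.11) or 2 (0.164), nor under spike-in scaling (0.219) or in a fit of these 2 groups only (0.0956). None of the 6 STAT3-responsive genes was called by limma (median 0.51) and 1 had an unadjusted p below 0.05, as did 5.8% of all genes. The largest was Bcl3, at 2.09 ± 0.50 with a limma adjusted p of 0.0753 and no overlap of arrays. Bcl3 was also the gene most like the second Socs3 probe set across stimulated groups. The STAT5-responsive list had 0 calls by limma and 3 unadjusted p-values below 0.05 among 9 (median 0.59), beside 5.8% of all genes below 0.05. With the replicate number as a block 1 of the 9 was called, the cell cycle inhibitor Cdkn1a, named after its values were seen. Cdkn1a was 1.49 (limma adjusted p 0.0131), against 1.19 (limma adjusted p 0.373) without the block. The block sets aside replicate 4 of Ag-B7, the only array with that number.

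With IFNa/b 1 of the 9 other brakes rose. Usp18 was higher by 6.15 ± 0.41 log2, 70.9-fold, with a limma adjusted p of 3.2e-07. Socs1, at 1.02 ± 0.31, was not called in the same comparison. Ifng, on the STAT4-responsive list, rose by 2.48 ± 0.49 (limma adjusted p 0.0278), and this call was lost without any 1 of Ag-B7 replicates 1, 2 and 3 or of the 3 IFNa/b replicates (limma adjusted p 0.0592, 0.107, 0.0546, 0.193, 0.0703 and 0.17). It was also lost after median centring (0.0574), with a pseudocount of 16 (0.0527) and in a fit of these 2 groups only (0.11). Against IFNa/b, IL-12 gave higher Il18r1 (2.56 ± 0.41) and Furin (1.76 ± 0.20), the latter not called under spike-in scaling (1.48; limma adjusted p 0.391). Usp18 was lower with IL-12 than with IFNa/b by 1.95 ± 0.44 log2 (limma adjusted p 0.0454), a call that held in 4 of 13 fits leaving out 1 array, those without naive replicate 1 or 2, IL-12 replicate 1 or IFNa/b replicate 3. That call was also lost after quantile normalization (limma adjusted p 0.181), with medians centred (0.0995), with a pseudocount of 16 (0.0746) and with no filter (0.0719).

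**Figure D4:**
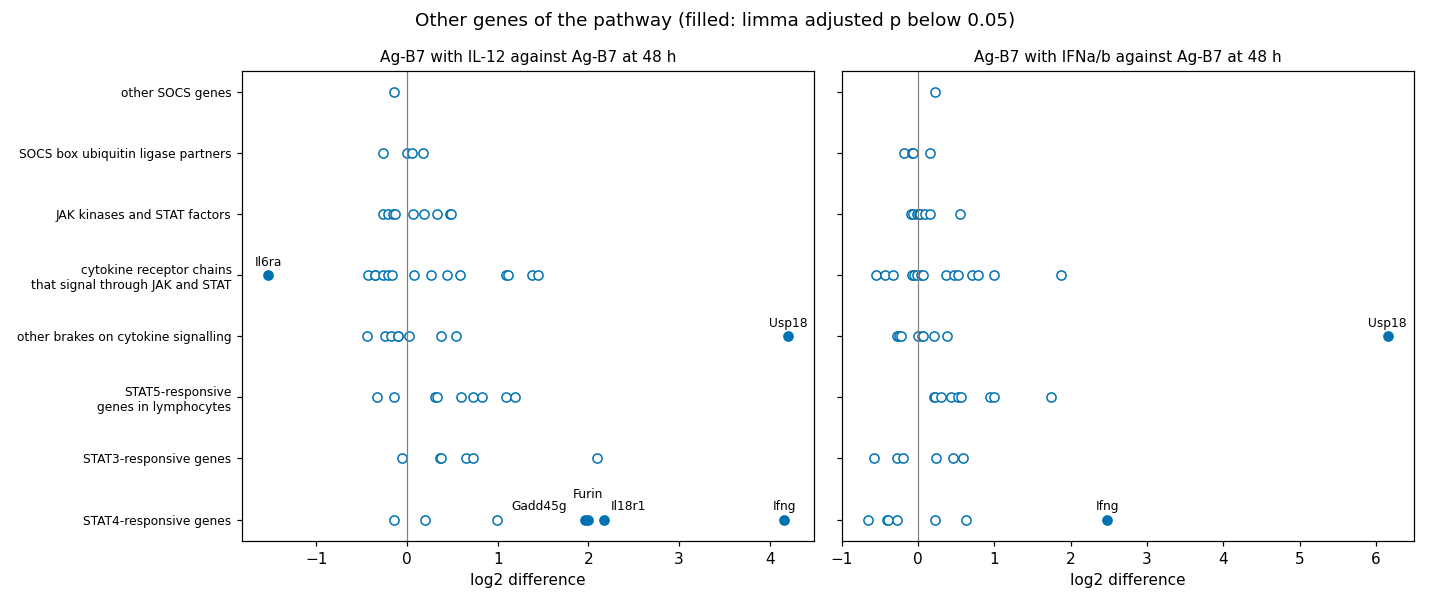
Log2 differences of the other pathway genes with IL-12 (left) and IFNa/b (right) against Ag-B7 alone at 48 h, by list; each circle is 1 gene, filled where the limma adjusted p is below 0.05. The filled genes are Usp18 and Ifng in both panels and Furin, Gadd45g, Il18r1 and Il6ra in the left panel.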

How the data were processed

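The authors deposited intensity on a linear scale, as MAS5 signals of 12488 probe sets per array; the submitters' processing notes name MAS5 without a version. Labelled RNA came from 10 ug of total RNA per sample, per the labels' protocols. The trimmed mean (2% off each end) was 999.765 to 999.856 on all arrays, and the medians were 232 to 507. Names came from the platform annotation, in which 10833 probe sets had 1 symbol, for 8251 genes, and 0 symbols needed an update. Where a gene had several probe sets, the brightest by mean log2 was used. The pseudocount was the median over arrays of the 20th percentile. A gene entered the fit if it exceeded the 40th percentile of its array in 3 or more of the 13 arrays with replicates. limma 3.58.1 in R 4.3.3 fitted group means with a trended eBayes prior (9 residual degrees of freedom), and was tested on simulated data. The number of arrays limits the precision.

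The members and lists were chosen with earlier results of these data known. Of other genes, those called were named, at most 3 per list against naive cells and, where a list had no call, at most its largest. Likeness names the top 3. Rnf7 and Cdkn1a were named beyond this rule. Alternatives were quantile normalization, median centring, scaling by 9 spiked-in probe sets, a pseudocount of 16, no filter, a replicate block, only the groups compared, the other Socs3 probe set, and leaving out each array. Single-array groups entered no test. 1 of the gene lists drawn up is not reported here. Same-numbered arrays were checked for pairing by the correlation of their deviations from the group means, which had to exceed 0.1 in each of 3 pairs. It was 0.28 in all 3 pairs of Ag-B7 and IL-12 at 48 h, against -0.30 to 0.18 in their 9 other pairs, and fell short in the other group pairs. The labels do not say what a number marks.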

Additional observations from a re-analysis of the deposited data

Results flagged for a closer look

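Cish on replicate 4 of Ag-B7 at 48 h read 2809, against 943 to 1109 on the other 3 arrays of the group. On the log2(signal + 46.4) scale its gap to the nearest array was 0.854 of the group's range, above Dixon's critical value of 0.829 for 4 samples. The test was run on the 5 SOCS probe sets in this group of 4, and chance marks about 1 in 20 such groups.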

How the results depend on the processing

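Socs3 and its second probe set against naive cells kept their direction under every alternative, Socs2 its call too. Socs3 was not called under spike-in scaling (-0.85, limma adjusted p 0.104), and Cish was called after median centring (0.99, 0.0405) and spike-in scaling (2.12, 0.000162). Socs1 turned to 0.53 after median centring and 1.65 after spike-in scaling, and lay between -0.40 and 0.13 when 1 array was left out. Under spike-in scaling the signs of Furin (0.58), Jak1 (0.12), Sh2b3 (0.46), Socs5 (0.50), Stat3 (0.36) and Stat5a (0.38) against naive cells also turned. With IL-12, Socs1 ranged from -0.04 to 0.47 without 1 array, and Socs3 was 2.08 (limma adjusted p 0.042) on its other probe set. Alternatives for that probe set were added after the data were seen: it was 2.07 (0.118) after quantile normalization, 2.04 (0.0925) after median centring, 1.88 (0.191) after spike-in scaling, 2.48 (0.0524) with a pseudocount of 16, 2.08 (0.0668) with no filter, and 1.89 to 2.43 without 1 array. Its IFNa/b difference ranged from -0.07 to 0.97 and its IL-12 against IFNa/b difference from 1.11 to 2.14 without 1 array. Socs2 with IFNa/b was 0.08 after spike-in scaling and -0.23 to 0.22 without 1 array. Genes called with IL-12 numbered 39, and 23 after median centring, 7 after spike-in scaling and 16 to 54 without 1 array. With IFNa/b they numbered 27, and 14 after spike-in scaling and 14 to 32 without 1 array. For IL-12 against IFNa/b they numbered 59, and 37 after spike-in scaling. The cause of these shifts was not tested.

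For Ag-B7 and IL-12 at 48 h the replicate numbers met the criterion for pairing. For the other group pairs they did not: over all groups 8 of 18 same-number pairs and 10 of 45 other pairs of arrays had deviations correlated above 0.1. With the replicate number as a block, Socs1 with IFNa/b was 1.28 (limma adjusted p 0.029), Socs2 with IFNa/b 0.16, and the second Socs3 probe set with IL-12 2.43 (0.0205). Replicate 4 of Ag-B7 has no same-numbered array, so the block sets it aside. Socs2 with IFNa/b was likewise 0.16 with that array left out. The shifts under the block therefore cannot be read as an effect of pairing. In the IL-12 comparison the block changed no call of a member, and of the pathway lists only that of Cdkn1a (1.49, 0.0131). With IFNa/b 2 of the 9 STAT5-responsive genes were called under the block, against 0 without it. With 3 or 4 arrays a group, limits are set by array spread, and dim signals such as the second Socs3 probe set after stimulation rest on values near the pseudocount.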

Other observations

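Among the stimulated arrays 2 from 48 h stood high for several members at once. Replicate 4 of Ag-B7 was the highest of its group for Cish (2809), Socs1 (2681), Socs2 (1985) and the second Socs3 probe set (192), and replicate 3 of IFNa/b the highest of its group for Cish (3867), Socs1 (3922), Socs3 (646) and the second Socs3 probe set (310). Over all kept genes the deviations of these arrays from their group means correlated at 0.45, the highest of the 45 pairs with different replicate numbers.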
